A study of Homo sapiens with 6 samples.

Results

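The snoRNA host noncoding genes are long noncoding genes whose introns carry small nucleolar RNAs. They were taken from the deposited gene table by name, as every gene called SNHG followed by a number together with GAS5, ZFAS1, DANCR and EPB41L4A-AS1, which gave 27 of 50868 genes. The rule uses gene names only. CUTLL1, an established line grown from a human T-cell leukaemia (T-ALL), was infected with lentivirus carrying an shRNA to AURKB, which encodes the mitotic kinase Aurora B (shAURKB, 3 biological replicates), or a control shRNA (shGFP, 3 biological replicates), kept under puromycin and collected at 48 h. Both arms therefore share the infection, the selection and the one cell line, and the labels describe no rescue and no further AURKB hairpin. The series title sets the comparison in the question of how Aurora B bears on the stability of the MYC protein, which RNA counts do not measure.

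A host gene of this kind is transcribed by RNA polymerase II and spliced. The introns release snoRNAs, which guide ribose methylation (box C/D class) or pseudouridylation (box H/ACA class) of ribosomal RNA, or scaRNAs, which do the same for spliceosomal RNAs in Cajal bodies. The joined exons hold little or no conserved reading frame, and many of them are degraded by nonsense-mediated decay once ribosomes reach them, so the level of the spliced host and the output of its introns need not move together. Many hosts, like ribosomal protein genes, start transcription inside a run of pyrimidines, the terminal oligopyrimidine (TOP) start that ties translation of an mRNA to mTOR signalling through LARP1. In proliferating cells these genes are active together with ribosome production, a programme to which MYC contributes.

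The library totals lay between 10154187 and 11922979 counts. The members took 0.0817%, 0.0860% and 0.0838% of the counts in the shAURKB libraries and 0.0844%, 0.0829% and 0.0818% in the shGFP libraries. AURKB itself averaged 39.9 ± 3.93 CPM in shAURKB cells and 101 ± 5.10 CPM in shGFP cells (SD, n = 3 each; CPM, counts scaled to library size, here after TMM scaling), a log2 fold change of -1.35 ± 0.083 (SE; edgeR adjusted p = 2.54e-04). MYC RNA was at 16.5, 7.90 and 13.3 CPM in shAURKB libraries and at 12.5, 10.2 and 12.1 CPM in shGFP libraries, and was not called (edgeR adjusted p = 0.778). All 6 T-cell markers had reads, summing to 1887 to 2004 CPM in shAURKB libraries and 1665 to 1795 CPM in shGFP libraries (by total count). PTCRA added next to nothing to these sums, with 7 reads over all shAURKB libraries and 15 over all shGFP libraries, under the count filter. The shGFP replicate 1 library stood apart in a few markers of other cells, COL1A2 and the keratins KRT8, KRT18 and KRT19. The defining fibroblast genes COL3A1, DCN and LUM were at 0 in every library. The 5 fibroblast genes summed to 0.185 to 0.258 CPM in shAURKB libraries, against 17.8 CPM in shGFP replicate 1 and 0 to 0.394 CPM in the other shGFP libraries. Nearly all of the sum in shGFP replicate 1 was COL1A2, at 17.5 CPM after TMM scaling, while COL1A1 was at 0.0944 CPM. The 5 epithelial markers summed to 0.463 to 1.03 CPM in shAURKB libraries, against 9.31 CPM in shGFP replicate 1 and 0.591 to 1.17 CPM in the other shGFP libraries. In shGFP replicate 1 KRT18, KRT8 and KRT19 were at 3.68, 3.11 and 2.17 CPM after TMM scaling. EPCAM was at 0.189 CPM there, its lowest value of all libraries, and CDH1 at 0. The 3 B-cell markers summed to 15.8 to 19.6 CPM in shAURKB and 20.7 to 22.6 CPM in shGFP libraries, with MS4A1 at 0, and the 3 myeloid markers to 1.48 to 2.15 CPM in shAURKB and 1.34 to 2.46 CPM in shGFP libraries, with LYZ at 0. The part these markers play in the results was not tested; values without shGFP replicate 1 are given beside the called members.

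Some transcript starts of the members showed the pyrimidine run, a feature that the name rule did not use. The following lines give the first 30 bases of annotated transcripts of 8 members, read 5′ to 3′ on the transcribed strand, with the opening C and the pyrimidines that follow it in capitals. They are shown because they hold a feature for which host genes are known.
GAS5: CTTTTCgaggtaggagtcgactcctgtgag
SNHG3: CCTTTTTggagacagattcgcagtggtcgc
SNHG16: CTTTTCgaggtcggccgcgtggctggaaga
SNHG19: CTTTTCggggtcgagtccgagggggaagag
SNHG5: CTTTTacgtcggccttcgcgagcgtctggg
ZFAS1: CTTTCgcgtctgcggtgcccggagtgtggt
SNHG12: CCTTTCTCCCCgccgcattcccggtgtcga
SNHG4: CCTTTCCCCTCCggcctctgccggtgctgc
These starts come from GENCODE 29 on GRCh38. They lie at chr1:173867960-173867989 (minus strand) for GAS5, chr1:28506043-28506072 (plus) for SNHG3, chr17:76557769-76557798 (plus) for SNHG16, chr16:2155329-2155358 (minus) for SNHG19 and chr6:85678704-85678733 (minus) for SNHG5. Those of the other members shown lie at chr20:49278642-49278671 (plus) for ZFAS1, chr1:28581844-28581873 (minus) for SNHG12 and chr5:139274102-139274131 (plus) for SNHG4. GAS5, SNHG16 and SNHG19 open with the same 6 bases. A start of C followed by at least 4 pyrimidines was held by 33 of 268 member transcripts (12.3%), against 4979 of 206694 transcripts of all genes (2.41%). Members have many annotated transcripts, and 14 of the 26 members in the annotation had at least 1 such start (53.8%), against 6.58% of all genes, 14.9% of genes with 5 to 10 transcripts and 29.9% of genes with over 10. At the RefSeq start site, with 1 start for each gene, 6 of 21 matched members had it (28.6%, exact 95% interval 11.3% to 52.2%), against 1429 of 35116 genes (4.07%). These are counts of letters at annotated starts; the starts in use in CUTLL1 were not measured. Of the 4 members described further on as called higher, 2 (GAS5 and SNHG3) had at least 1 such GENCODE transcript, and of the 19 tested members not called 11 had one. At the RefSeq start 0 of these 4 had the run, against 5 of 15 matched members not called (SNHG4, SNHG5, SNHG12, SNHG19 and ZFAS1). GAS5 and SNHG17 open with A there, and SNHG3 and SNHG14 with G. The GAS5 start printed here is used by 6 of its 29 annotated transcripts and lies 1056 bases downstream of its RefSeq start.

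Of the 27 members, 23 had enough reads to be tested. SNHG18, SNHG23 and SNHG24 had no read in any of the 6 libraries. SNHG22, whose span holds a scaRNA, had 10, 5 and 8 reads in shAURKB libraries and 2, 4 and 9 reads in shGFP libraries, and fell under the count filter. In the table's GRCh38 positions the members are spread over many chromosomes, and 25 of them enclose a snoRNA or scaRNA on their own strand in GENCODE 29. Entries named there only by an Rfam family number were left out of this and later counts of enclosed RNAs.

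Member levels are given here as the deposited FPKM (fragments scaled by a length for each gene and by library depth). The sources used here do not state that length. For SNHG1 (119 CPM and 8.14 FPKM in shAURKB cells) it exceeds the whole span of 3927 bases, and likewise for GAS5 and SNHG15. The order of members is therefore that of the deposited values, not of level per base. SNHG6, the host of SNORD87, had the highest deposited FPKM in both arms, at 32.2 ± 3.35 FPKM in shAURKB cells and 39.9 ± 0.581 FPKM in shGFP cells. ZFAS1 came next at 22.1 ± 1.48 and 24.3 ± 1.19 FPKM in the same order of arms, then SNHG8 at 19.2 ± 1.39 and 18.1 ± 1.45 FPKM (SD, n = 3 each). In shAURKB cells neither ZFAS1 and SNHG8 nor SNHG8 and SNHG3 (17.3 ± 1.00 FPKM) differed by more than the sum of their SDs, so the order among these neighbours does not exceed the spread there. SNHG3 and SNHG19 exchanged places between the arms, at 17.3 and 14.4 FPKM in shAURKB cells against 12.9 and 14.3 FPKM in shGFP cells. DANCR followed at 12.2 ± 1.03 FPKM in shAURKB and 11.6 ± 4.04 FPKM in shGFP cells, then SNHG7 (9.72 ± 0.368 and 9.51 ± 0.496), SNHG1 (8.14 ± 0.573 and 9.03 ± 0.404) and SNHG15 (7.57 ± 0.966 and 7.39 ± 1.38). In shGFP cells no neighbours from SNHG3 down to SNHG15 differed by more than the sum of their SDs, and in shAURKB cells SNHG1 and SNHG15 did not. SNHG14, which spans 440880 bases, had 1.41 ± 0.0492 FPKM in shAURKB cells and 1.252 ± 0.0544 FPKM in shGFP cells. Its CPM was close to that of SNHG15, so their gap in FPKM comes from the length used for each, which is not the span.

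**Figure D1:**
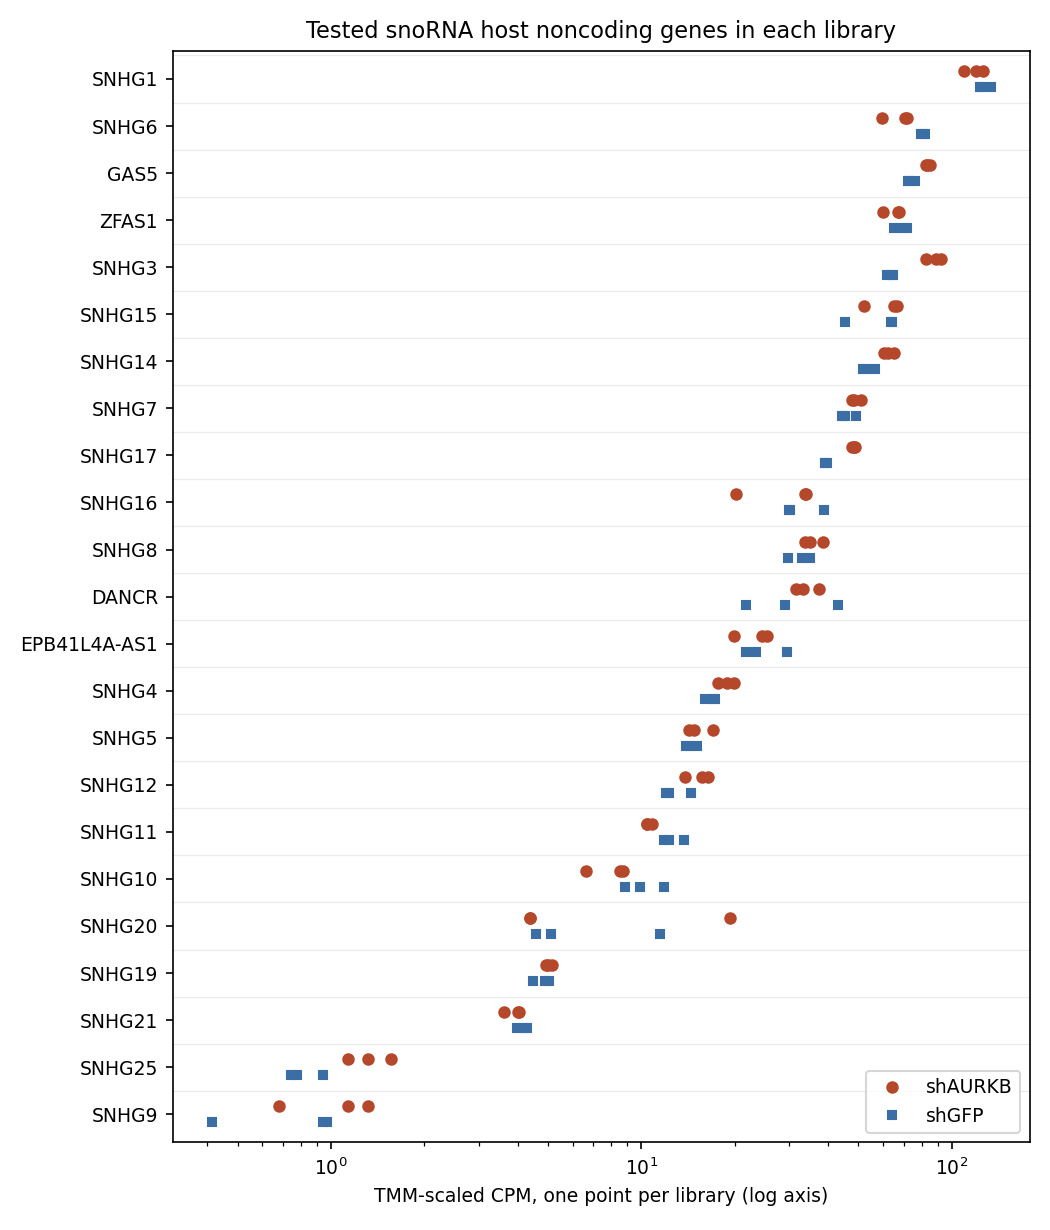
Level of each tested member in each library, in TMM-scaled CPM on a log axis, with shAURKB (circles) above shGFP (squares) in each row. Each mark is 1 library; those of SNHG3 lie between 82.6 and 92.6 CPM in shAURKB and between 61.7 and 64.5 CPM in shGFP, while those of SNHG20 spread over 4.36 to 19.3 CPM and 4.56 to 11.5 CPM.

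After AURKB knockdown 4 of the 23 tested members were higher (SNHG3, SNHG17, GAS5 and SNHG14) and 0 were lower at an edgeR adjusted p below 0.05. The other 19 were not called. Over all 14818 tested genes 12.5% were called higher and 10.9% lower, so the 17.4% of members called higher lay near the background. The 1847 higher and 1609 lower genes behind these shares became 1325 and 2087 with upper-quartile scaling and 1264 and 1686 with limma on log2(FPKM + 1). At an unadjusted p below 0.05 there were 5 members higher and 2 lower. The 4 higher became 2, SNHG3 and SNHG17, with DESeq2, with upper-quartile scaling, without a count filter, with the replicate number as a block and with unfiltered FPKM. Both filtered FPKM fits called 3 higher, SNHG3, SNHG17 and SNHG25. DESeq2 also called 0 members lower, while 1 member, SNHG6, was lower with upper-quartile scaling, with limma-voom and with both filtered FPKM fits. Of the tested members, 17 had a mean of at least 10 CPM, all 4 called members among them, and over all 9891 genes at that level 17.9% were called higher and 11.4% lower. Among the 2061 tested long noncoding genes the shares were 2.77% higher and 9.07% lower. The median log2 fold change was 0.08 over the tested members, -0.0042 over all tested genes, 0.04 over genes of at least 10 CPM and -0.14 over long noncoding genes. Fold changes were positive in 15 members and negative in 8, from -0.35 (SNHG10) to 0.70 (SNHG25), neither of which was called.

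**Figure D2:**
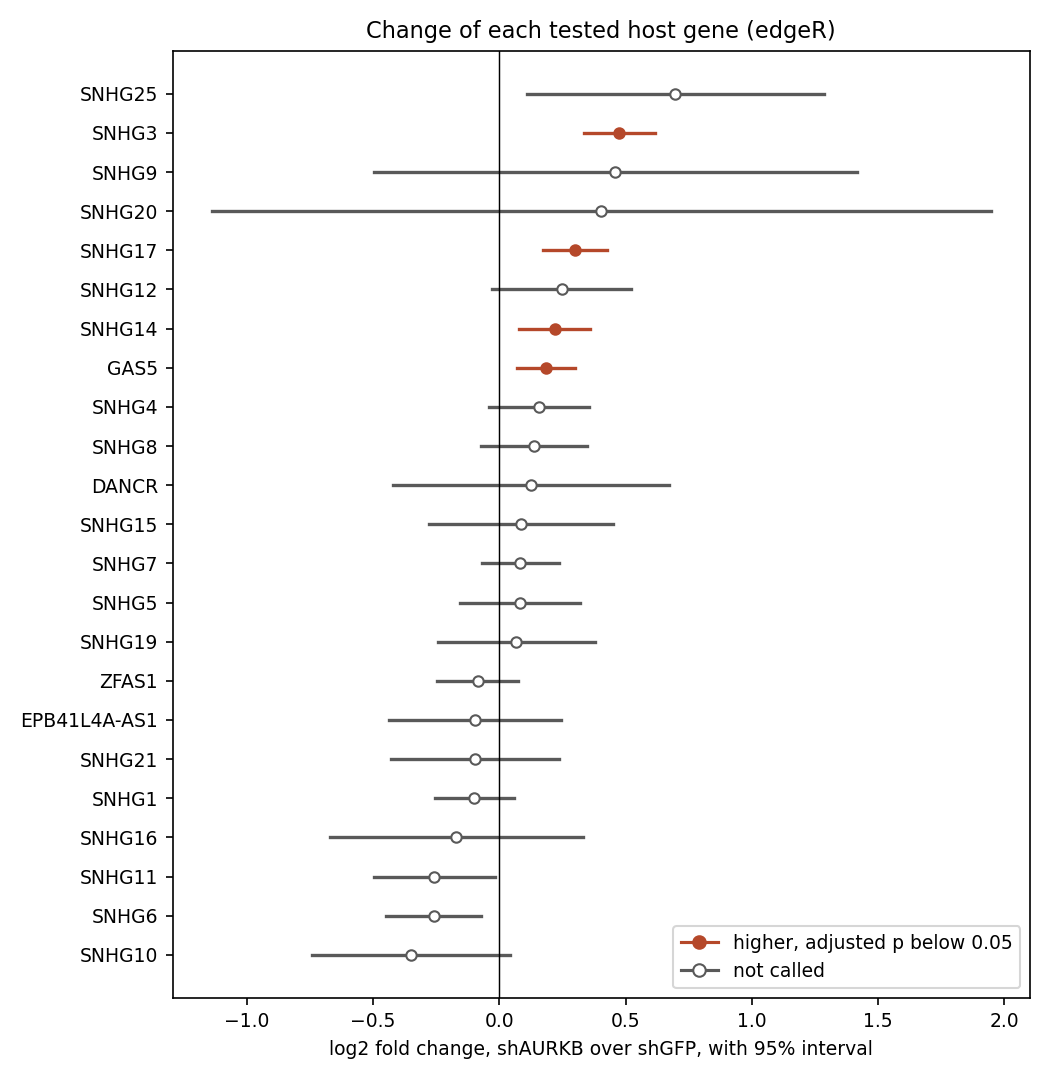
Log2 fold change of each tested member, shAURKB over shGFP, with its 95% interval; filled points mark an edgeR adjusted p below 0.05. The intervals of SNHG3 (0.33 to 0.62), SNHG17, GAS5 and SNHG14 lie above 0 and the members are called; SNHG20 has the widest interval, from -1.14 to 1.95.

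SNHG3 showed the firmest change. It carries the box H/ACA snoRNAs SNORA73A and SNORA73B, a pair that acts in processing of the precursor of 18S ribosomal RNA rather than only in base modification. SNHG3 was at 82.6, 92.6 and 89.0 CPM in shAURKB libraries and at 64.5, 64.0 and 61.7 CPM in shGFP libraries. Every shAURKB library was above every shGFP library. The level was 1.39-fold higher after knockdown (log2 fold change 0.47 ± 0.060 SE, 95% interval 0.33 to 0.62, edgeR adjusted p = 2.54e-03). Without shGFP replicate 1 the log2 fold change was 0.49 (edgeR adjusted p = 0.0110). The gene lies at chr1:28505980-28510892 on the plus strand, wholly inside RCC1, which encodes the nucleotide exchange factor of the GTPase Ran and runs on the same strand.

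RCC1 was at 179, 207 and 220 CPM in shAURKB libraries and at 165, 187 and 148 CPM in shGFP libraries, overlapping between the arms, with a log2 fold change of 0.28 ± 0.10 (SE; edgeR adjusted p = 0.0966). The table starts RCC1 37 bases before SNHG3, at the base that RefSeq gives as the SNHG3 start, so reads of the shared first exons cannot be told apart. The ratio of SNHG3 reads to RCC1 reads was 0.460, 0.447 and 0.405 in shAURKB libraries and 0.391, 0.342 and 0.416 in shGFP libraries, and these overlapped (exact two-sided permutation p = 0.2, adjusted to 0.3 over 3 pair ratios chosen after their values were seen). With 3 against 3 libraries that test cannot give a p below 0.1. The snoRNA row SNORA73B held 20, 15 and 21 reads in shAURKB libraries and 14, 13 and 15 reads in shGFP libraries, touching at 15 reads but separate in CPM, and was not called (log2 fold change 0.44 ± 0.21 SE, edgeR adjusted p = 0.253). SNORA73A held 1 read in each of the 6 libraries. Reads of these snoRNAs and of the unspliced host around them cannot be told apart in such rows.

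The window around the RefSeq start of SNHG3, chr1:28505693-28505992 on the plus strand (GRCh38.p14), is shown because this member changed most among those called. The 250 bases before the start are in lower case and the 50 transcribed bases in capitals.
SNHG3 promoter: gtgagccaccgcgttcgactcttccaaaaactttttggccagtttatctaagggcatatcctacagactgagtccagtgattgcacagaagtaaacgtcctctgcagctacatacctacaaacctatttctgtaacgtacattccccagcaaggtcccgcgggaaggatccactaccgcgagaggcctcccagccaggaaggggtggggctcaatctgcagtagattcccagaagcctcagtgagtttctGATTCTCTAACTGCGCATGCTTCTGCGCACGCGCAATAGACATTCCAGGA
SNORA73B, which lies inside SNHG3 at chr1:28508559-28508762 (plus strand, GENCODE 29), is printed with the ACA box near its 3′ end in capitals, the element that defines its class.
SNORA73B: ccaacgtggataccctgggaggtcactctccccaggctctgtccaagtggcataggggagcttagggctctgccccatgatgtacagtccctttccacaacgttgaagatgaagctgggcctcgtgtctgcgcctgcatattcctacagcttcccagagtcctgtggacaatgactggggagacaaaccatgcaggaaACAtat
The box stands 3 bases from the end of the 204-base RNA. At the RefSeq start the SNHG3 RNA opens with a purine, whereas its annotated transcript starting downstream opens with the pyrimidine run printed earlier.

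SNHG17 was the other member with a stable call. It hosts box H/ACA snoRNAs of the SNORA71 family and lies at chr20:38420588-38435353 on the minus strand. Its level was 48.2, 47.8 and 48.7 CPM in shAURKB libraries and 39.6, 39.1 and 38.9 CPM in shGFP libraries. The arms were far apart relative to their spread, with a coefficient of variation of 0.994% in shAURKB and 0.949% in shGFP. The fold was 1.23 (log2 fold change 0.30 ± 0.053 SE, 95% interval 0.17 to 0.42, edgeR adjusted p = 9.03e-03), and without shGFP replicate 1 the log2 fold change was 0.31 (edgeR adjusted p = 0.0272). The SNORA71B row held 19, 13 and 17 reads in shAURKB libraries and 7, 18 and 9 reads in shGFP libraries, which overlapped (log2 fold change 0.55 ± 0.39 SE, edgeR adjusted p = 0.356). The promoter window of SNHG17, chr20:38435279-38435578 on the minus strand (GRCh38.p14), follows for comparison with that of SNHG3, in the same layout.
SNHG17 promoter: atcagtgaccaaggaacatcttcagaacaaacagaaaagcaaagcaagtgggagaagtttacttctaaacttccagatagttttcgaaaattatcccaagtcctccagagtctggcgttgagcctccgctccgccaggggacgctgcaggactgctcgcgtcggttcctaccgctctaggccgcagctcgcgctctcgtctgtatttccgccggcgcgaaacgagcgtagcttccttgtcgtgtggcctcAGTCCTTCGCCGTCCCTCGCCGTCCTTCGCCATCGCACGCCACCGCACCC
Its first transcribed base is A, directly followed by GTCC, so it lacks the C-led run as well.

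SNHG11 is the nearest member to SNHG17, 11224 bases away on the opposite strand (chr20:38446578-38450921), and also encloses a SNORA71 snoRNA, SNORA71E. SNHG11 was at 10.4, 10.8 and 10.4 CPM in shAURKB libraries and at 12.3, 11.8 and 13.7 CPM in shGFP libraries. Its groups did not overlap and its values were lower after knockdown, but it was not called (log2 fold change -0.26 ± 0.10 SE, edgeR adjusted p = 0.114). The ratio of SNHG17 reads to SNHG11 reads was 4.57 ± 0.139 in shAURKB libraries and 3.12 ± 0.251 in shGFP libraries (SD, n = 3 each), and the 3 values of each arm, 4.63, 4.41 and 4.67 against 3.23, 3.30 and 2.84, did not overlap. That is a log2 difference of 0.55, at the smallest p the exact two-sided permutation test can give with 3 against 3 (p = 0.1, adjusted to 0.3 over the 3 pair ratios). The pair was picked after both values were seen.

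GAS5 is best known for RNA that accumulates when growth stops, because its spliced form is removed by nonsense-mediated decay in growing cells, and for a stretch that can bind the glucocorticoid receptor. In human cells its introns carry box C/D snoRNAs, although GENCODE 29 lists none under a snoRNA symbol inside it. GAS5 was at 82.8, 85.0 and 83.0 CPM in shAURKB libraries and at 72.2, 76.0 and 72.6 CPM in shGFP libraries. All shAURKB values were above all shGFP values. The change was small, 1.14-fold (log2 fold change 0.18 ± 0.048 SE, 95% interval 0.07 to 0.30, edgeR adjusted p = 0.0344), and leaving out any 1 library ended the call (edgeR adjusted p 0.0505 to 0.0960; 0.0953 without shGFP replicate 1). It runs at chr1:173863900-173868882 on the minus strand and shares 801 bases with ZBTB37 on the opposite strand, a zinc-finger gene with 68.4 ± 3.56 CPM in shAURKB cells and 69.1 ± 21.6 CPM in shGFP cells (SD, n = 3 each).

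SNHG14 is the long transcript of the imprinted Prader-Willi region, at chr15:24978583-25419462 on the plus strand. It encloses 83 snoRNAs in GENCODE 29, among them the SNORD115 cluster, and in neurons its far end silences UBE3A from the opposite strand. SNHG14 was at 62.4, 60.5 and 65.1 CPM in shAURKB libraries and at 53.2, 56.5 and 51.9 CPM in shGFP libraries, with no overlap. It was 1.16-fold higher (log2 fold change 0.22 ± 0.059 SE, 95% interval 0.08 to 0.36, edgeR adjusted p = 0.0382). Leaving out 1 library at a time kept the call only without shGFP replicate 2 (edgeR adjusted p 0.0495 to 0.106 over the 6 fits; 0.0975 without shGFP replicate 1).

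SNRPN, the gene of the spliceosomal SmN protein, lies upstream on the same strand and shares 141 bases with SNHG14 by the table's positions. RefSeq, however, starts SNHG14 at chr15:24823608, just before the table's SNRPN start at 24823637 and far upstream of the table's SNHG14 start. By that start SNHG14 runs through SNRPN, so the 2 rows need not count separate transcripts. SNRPN was higher too, at 92.8, 78.3 and 90.6 CPM in shAURKB libraries and 73.9, 73.6 and 72.3 CPM in shGFP libraries (log2 fold change 0.25 ± 0.072 SE, edgeR adjusted p = 0.0455). The ratio of SNHG14 reads to SNRPN reads overlapped between the arms, at 0.673, 0.772 and 0.719 in shAURKB and 0.720, 0.768 and 0.718 in shGFP (exact two-sided permutation p = 0.9, also 0.9 after adjustment over the 3 ratios). UBE3A, the ubiquitin ligase gene, was at 94.0 ± 6.47 CPM in shAURKB cells and 103 ± 19.8 CPM in shGFP cells and was not called (edgeR adjusted p = 0.546).

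The best known hosts outside the called set gave no call. SNHG1, the host of SNORD22 and a run of further box C/D snoRNAs, had the highest CPM of all members. It was at 109, 120 and 126 CPM in shAURKB libraries and at 124, 134 and 123 CPM in shGFP libraries (log2 fold change -0.10 ± 0.066 SE, edgeR adjusted p = 0.323). The arms overlapped, and the 95% interval of the difference ran from -0.25 to 0.06.

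ZFAS1 starts close to ZNFX1 and runs against it, carrying the SNORD12 family. ZFAS1 was at 67.8, 66.9 and 60.1 CPM in shAURKB libraries and at 71.8, 65.3 and 69.7 CPM in shGFP libraries, which overlapped (log2 fold change -0.09 ± 0.068 SE, edgeR adjusted p = 0.406; 95% interval -0.25 to 0.08). ZNFX1, its neighbour, was higher at 115 ± 2.89 CPM in shAURKB cells and 94.5 ± 3.95 CPM in shGFP cells (SD, n = 3 each; log2 fold change 0.28 ± 0.05 SE, edgeR adjusted p = 9.57e-03). No source used here gives the strand setting of the counting, so reads from the stretch they share cannot be assigned to either.

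DANCR, the host of SNORA26 named for its role against differentiation, was at 31.5, 33.2 and 37.3 CPM in shAURKB libraries and at 43.0, 28.9 and 21.6 CPM in shGFP libraries. Its shGFP libraries spanned the shAURKB values on both sides (log2 fold change 0.13 ± 0.23 SE, edgeR adjusted p = 0.736; 95% interval -0.42 to 0.67), and without shGFP replicate 3 the log2 fold change was -0.08. EPB41L4A-AS1, the host of SNORA13, was at 24.4, 25.5 and 19.8 CPM in shAURKB libraries and at 29.4, 23.5 and 21.6 CPM in shGFP libraries, also overlapping (log2 fold change -0.10 ± 0.14 SE, edgeR adjusted p = 0.673; 95% interval -0.44 to 0.25). Its log2 fold change was 0.0092 without shAURKB replicate 3 and 0.04 without shGFP replicate 1.

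SNHG6, the member with the highest FPKM, lay nearest the threshold from below. It was at 70.8, 72.0 and 59.5 CPM in shAURKB libraries and at 81.2, 81.7 and 79.5 CPM in shGFP libraries, lower values without overlap, but was not called (log2 fold change -0.26 ± 0.079 SE, edgeR adjusted p = 0.0549). SNHG25, a short gene that holds SNORD104 and SNORA50C, was at 1.31, 1.56 and 1.14 CPM in shAURKB libraries and at 0.944, 0.776 and 0.744 CPM in shGFP libraries (log2 fold change 0.70 ± 0.25 SE, edgeR adjusted p = 0.122). Its arms did not overlap either, though it rests on under 2 CPM in each library. The filtered FPKM fits called it higher (limma adjusted p = 0.0341 with a pseudocount of 1 and 0.0333 with 0.1). In all 9 of the 23 tested members did not overlap between the arms, 6 higher and 3 lower (39.1%), against 42.6% of all tested genes.

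**Figure D3:**
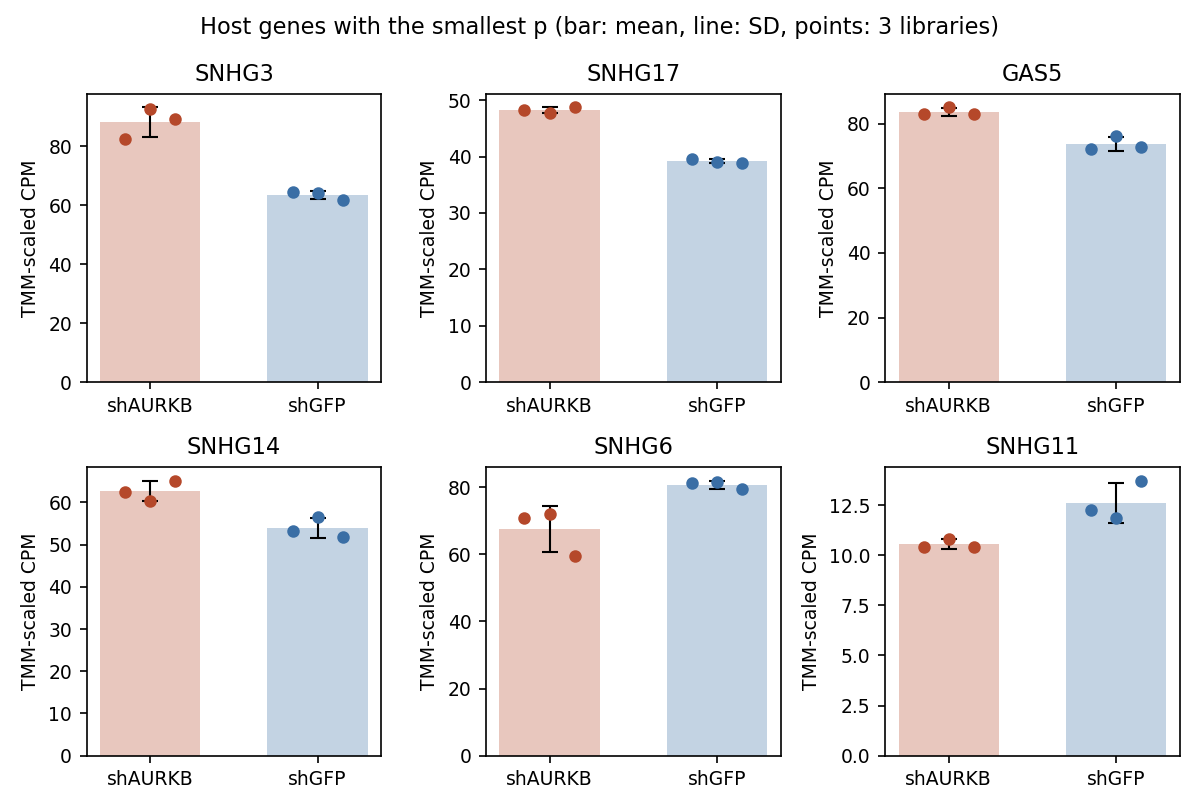
Mean level (bar) with SD (line) and the 3 libraries of each arm (points), in TMM-scaled CPM from 0, shAURKB left of shGFP, for the 6 members with the smallest p. The arms do not overlap in any of the 6; shAURKB is higher for SNHG3, SNHG17, GAS5 and SNHG14, which were called, and lower for SNHG6 and SNHG11, which were not.

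For 12 of the 19 uncalled members the 95% interval of the log2 fold change lay within 0.5 of 0 on both sides: EPB41L4A-AS1, SNHG1, SNHG4, SNHG5, SNHG6, SNHG7, SNHG8, SNHG11, SNHG15, SNHG19, SNHG21 and ZFAS1. The intervals of SNHG6 (-0.447 to -0.073) and SNHG11 (-0.498 to -0.017) excluded 0 all the same, and that of SNHG11 almost reached the limit. For the other 7 uncalled members the interval reached further than 0.5. SNHG20, host of SCARNA16, was at 19.3, 4.39 and 4.36 CPM in shAURKB libraries and at 5.10, 4.56 and 11.5 CPM in shGFP libraries, so 1 library of each arm stood above the rest (log2 fold change 0.40 ± 0.65 SE, edgeR adjusted p = 0.697; log2 fold change -0.69 without shAURKB replicate 1). The gene lies wholly inside SEC14L1 on the same strand, and SEC14L1 also had its highest count in shAURKB replicate 1 (1454 reads, against 875 and 987 in the other shAURKB libraries and 1173, 1149 and 1081 in shGFP). In shGFP replicate 3, the other library with high SNHG20, SEC14L1 was instead at its lowest count of that arm. SNHG16, host of the SNORD1 family, had 20.1 CPM in shAURKB replicate 1 and 33.7 and 33.9 CPM in the other shAURKB libraries, against 30.2, 38.8 and 29.8 CPM in shGFP (log2 fold change -0.17 ± 0.21 SE, edgeR adjusted p = 0.602; log2 fold change 0.04 without shAURKB replicate 1). The rest of these 7, apart from DANCR and SNHG25, were SNHG9 (0.46 ± 0.41 SE), SNHG10 (-0.35 ± 0.17 SE) and SNHG12 (0.25 ± 0.12 SE), at edgeR adjusted p 0.456, 0.175 and 0.174.

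Sorted by the small RNA that each gene encloses, a grouping made after the values were seen, the 10 tested box H/ACA hosts had a median log2 fold change of 0.13, with 8 positive and 2 negative values and 2 called higher. The 7 hosts with box C/D snoRNAs in GENCODE 29 had a median of -0.09, with 3 positive and 4 negative values and 1 called higher, SNHG14. With GAS5 counted among them there were 8, with a median of -0.0095, 4 positive and 4 negative values and 2 called higher. The 3 tested scaRNA hosts, SNHG10, SNHG20 and SNHG21, ran from -0.35 to 0.40 with none called by edgeR. SNHG12 and SNHG25, which hold both classes, were at 0.25 and 0.70 and not called. Over all tested genes 12.5% were called higher, and 17.9% of those of at least 10 CPM. Counts of 1 or 2 called in classes this small lay near those shares. The difference between the classes was not tested.

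Summed over the 27 members, the read level was 832, 876 and 858 CPM in shAURKB libraries and 830, 816 and 806 CPM in shGFP libraries, 855 ± 21.7 against 817 ± 12.1 CPM (SD, n = 3 each). The arms did not overlap, by the narrow margin of shAURKB replicate 1 over shGFP replicate 1, and this separation rests on the TMM scaling. By total count the members' shares overlapped, as given at the start, and the log2 ratio of the arms was 0.014 in place of 0.07. On the deposited FPKM scale, where members weigh by the length used for each, the sums were 186 ± 6.11 in shAURKB and 187 ± 5.06 in shGFP. They overlapped. SNHG3 made up 10.3% of the summed CPM in shAURKB cells and 7.75% in shGFP cells, while SNHG1 made up 13.9% and 15.5% and SNHG6 7.89% and 9.88% in the same order.

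Overlap with other genes limits several of these rows. Another gene with reads overlapped the span of 16 members. For 4 of them (SNHG3, SNHG14, SNHG4 and SNHG20) such a gene, other than a snoRNA, ran on the same strand. Gene totals do not show where along these genes the reads lie. Besides SNRPN, which overlaps SNHG14, and ZNFX1, 3 overlapping genes were called: ST6GALNAC2, a sialyltransferase gene opposite SNHG16, at 21.6 ± 0.277 CPM in shAURKB and 17.3 ± 0.194 CPM in shGFP (edgeR adjusted p = 0.0178), and GLRX5, an iron-sulphur cluster assembly gene opposite SNHG10, at 97.8 ± 2.83 and 80.1 ± 4.99 CPM (SD, n = 3 each; edgeR adjusted p = 0.0160), were higher. MYO5B, a myosin motor gene opposite the untested SNHG22, was lower, at 0.807 ± 0.305 CPM in shAURKB and 1.83 ± 0.378 CPM in shGFP (log2 fold change -1.18 ± 0.33 SE, edgeR adjusted p = 0.0407). The scaRNA row SCARNA15 inside SNHG21 held 36, 35 and 45 reads in shAURKB libraries and 38, 41 and 37 reads in shGFP libraries and was not called (edgeR adjusted p = 0.926). SCARNA13 inside SNHG10 had 4, 2 and 3 reads in shAURKB libraries and 4, 4 and 6 in shGFP libraries, under the filter.

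The E-box CACGTG, the site bound by MYC with its partner MAX, reads the same on both strands and was searched from 250 bases before to 50 bases after the RefSeq start. It stood in 1 of 21 matched member promoters (4.76%, exact 95% interval 0.12% to 23.8%), against 2548 of 35116 promoters (7.26%). That promoter belongs to SNHG7, host of SNORA17A and SNORA17B. The stretch at chr9:136728281-136728326 on the minus strand (GRCh38.p14) is printed with the motif in capitals because it was the single match.
SNHG7 promoter: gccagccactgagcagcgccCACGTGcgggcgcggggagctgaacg
SNHG7 was at 47.7, 51.1 and 48.4 CPM in shAURKB libraries and at 44.5, 45.4 and 49.1 CPM in shGFP libraries, which overlapped (log2 fold change 0.08 ± 0.065 SE, edgeR adjusted p = 0.401). A match describes letters only, and binding was not measured.

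Genes of the same pathway were counted from lists chosen for their roles. Beside them stand all tested genes, with 12.5% called higher, 10.9% lower and a median of -0.0042, and all tested genes of at least 10 CPM, with 17.9% higher, 11.4% lower and a median of 0.04. No list was tested against either. Of 19 genes of the snoRNA-protein particles and their assembly, 9 were higher, 0 were lower and 10 were not called, with a median log2 fold change of 0.24. RRP9, a protein of the U3 particle, was at 73.1 ± 2.82 CPM in shAURKB cells and 43.1 ± 2.55 CPM in shGFP cells (log2 fold change 0.76 ± 0.065 SE, edgeR adjusted p = 6.69e-04). NOLC1, a nucleolar and Cajal body chaperone of snoRNA particles, was at 456 ± 32.0 and 288 ± 39.5 CPM in the same order (log2 fold change 0.66 ± 0.10 SE, edgeR adjusted p = 5.48e-03). Among the core proteins, the H/ACA genes DKC1 (194 and 150 CPM), GAR1 (71.5 and 51.8 CPM) and NHP2 (154 and 121 CPM, shAURKB first in each) were higher. NOP10 of the same particle (40.2 ± 9.64 and 35.5 ± 5.79 CPM) was not called. Of the C/D core genes NOP56 was higher (350 and 293 CPM), while FBL (227 and 214 CPM), NOP58 (193 and 186 CPM) and SNU13 (114 and 116 CPM) were not called. Outside the core, the assembly genes NUFIP1, ZNHIT6 and RUVBL2 were higher too (log2 fold change 0.32, 0.38 and 0.40). NAF1, SHQ1, RPAP3, ZNHIT3, RUVBL1 and PIH1D1 were not called. These core and assembly genes were named after their values were seen, and no difference between the H/ACA and C/D particles was tested.

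Of 47 protein-coding snoRNA hosts, mostly ribosomal protein and translation factor genes, 17 were higher, 0 were lower and 30 were not called, with a median of 0.14. HSPA8, the constitutive HSP70 chaperone gene and a host of box C/D snoRNAs, was at 3124 ± 45.9 CPM in shAURKB cells and 2009 ± 74.5 CPM in shGFP cells (log2 fold change 0.64 ± 0.033 SE, edgeR adjusted p = 1.55e-04). RPS13, a small-subunit protein gene, was at 283 ± 2.75 and 206 ± 29.97 CPM in the same order (log2 fold change 0.46 ± 0.095 SE, edgeR adjusted p = 0.0153). NOP56, NOP58 and DKC1 stand in both lists.

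Of 14 nonsense-mediated decay factors 4 were higher, 1 was lower and 9 were not called, with a median of 0.02. MAGOH and EIF4A3, both of the exon junction complex, rose by 0.38 ± 0.081 and 0.35 ± 0.036 on the log2 scale (SE; edgeR adjusted p = 0.0172 and 1.28e-03). UPF1, the central helicase of the pathway, was at 393 ± 6.32 CPM in shAURKB cells and 318 ± 8.60 CPM in shGFP cells (edgeR adjusted p = 1.71e-03), and UPF3B was the factor that was lower (35.6 ± 3.96 and 44.7 ± 1.70 CPM; edgeR adjusted p = 0.0405). Of 11 regulators of TOP mRNAs 1 was higher, 2 were lower and 8 were not called, with a median of 0.02. LARP4, an mRNA-stabilising La-related protein gene, was the higher one at 0.68 ± 0.047 (log2, SE; edgeR adjusted p = 3.74e-04). EIF4EBP1, which encodes the mTOR-controlled inhibitor of cap binding, fell to 59.0 ± 2.57 CPM in shAURKB cells, against 90.8 ± 2.16 CPM in shGFP cells (log2 fold change -0.62 ± 0.055 SE, edgeR adjusted p = 7.12e-04). LARP1 was at 571 ± 13.96 CPM in shAURKB cells and 537 ± 5.58 CPM in shGFP cells and was not called (edgeR adjusted p = 0.0797).

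Of 3 further noncoding hosts filed under other symbols, MEG8 had no read and the others were tested and not called. LRRC75A-AS1, also known as SNHG29, was at 189 ± 4.50 CPM in shAURKB cells and 179 ± 9.67 CPM in shGFP cells (log2 fold change 0.08 ± 0.05 SE, edgeR adjusted p = 0.309).

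**Figure D4:**
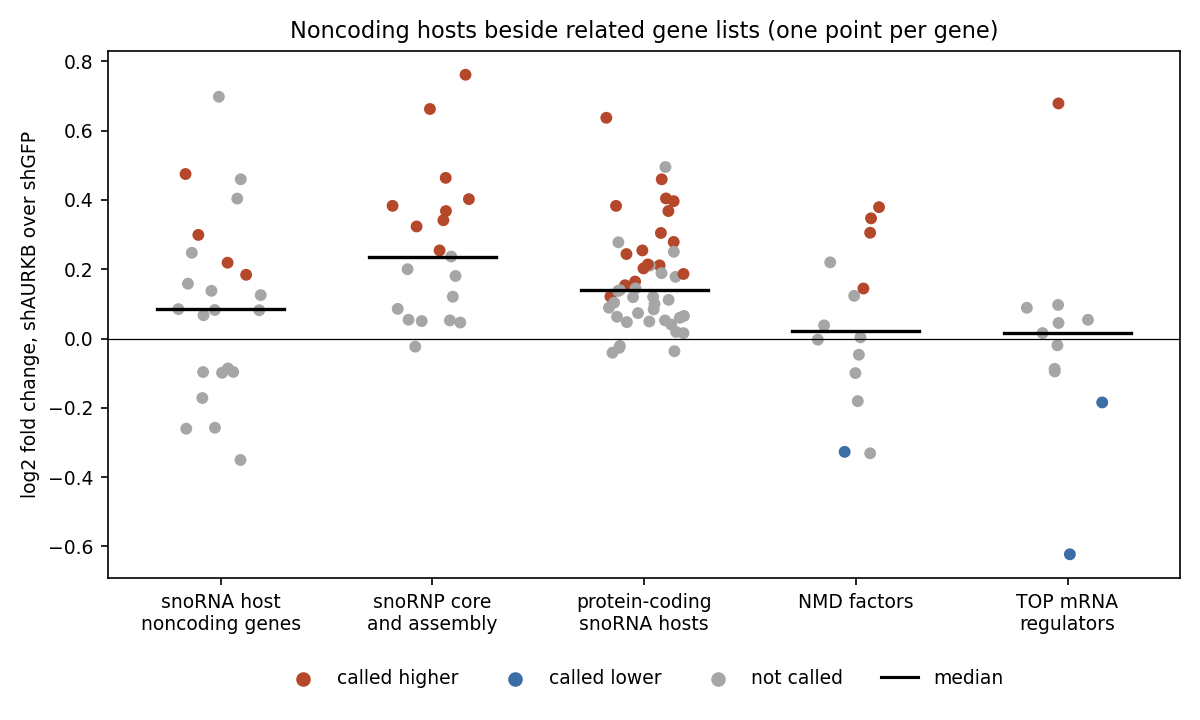
Log2 fold change, shAURKB over shGFP, with 1 point for each tested gene of the members and of 4 related lists, coloured by edgeR call; the bar is the median of each list and the thin line marks 0. The members' median is 0.08, that of the genes of snoRNA particles 0.24 and that of the protein-coding hosts 0.14.

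The calls of SNHG3 and SNHG17 stood in all 16 alternative fits, with log2 fold changes of 0.40 to 0.52 and 0.22 to 0.31. GAS5 was called in 3 of the 16 and SNHG14 in 4, with positive values throughout. SNHG6 was called lower in 4 of the 16 and had negative values in all of them.

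**Figure D5:**
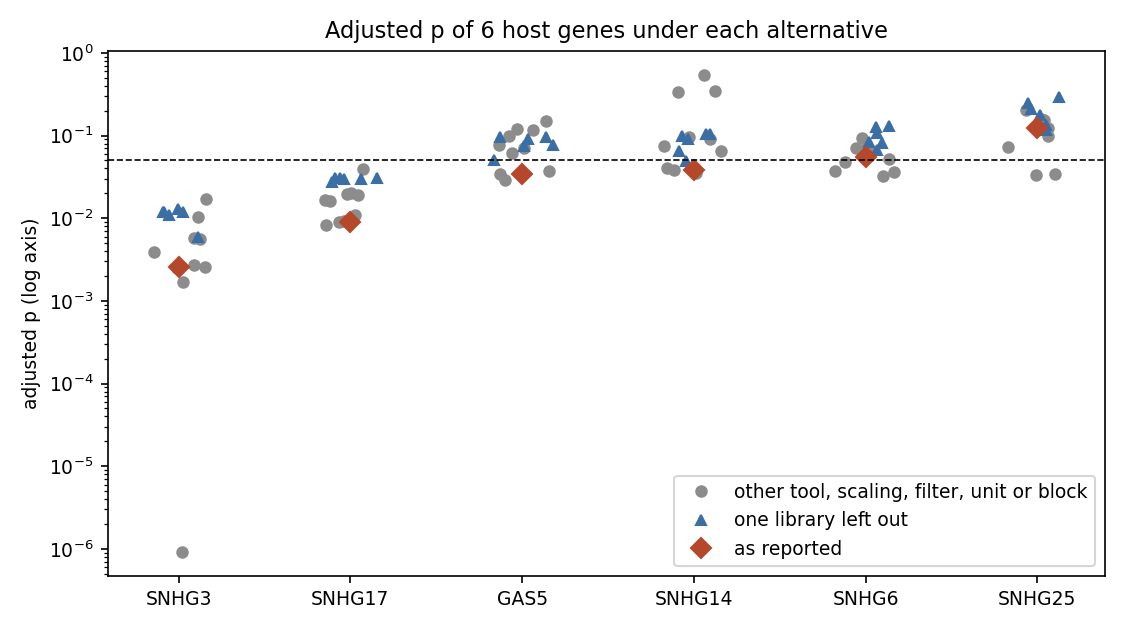
Adjusted p on a log axis for 6 members as reported (diamonds), with 1 library left out (triangles) and under the other alternatives (circles); the dashed line is 0.05. All points of SNHG3 and SNHG17 lie below the line, while those of GAS5, SNHG14 and SNHG6 fall on both sides of it, as do those of SNHG25.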

How the data were processed

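RNA of 6 CUTLL1 cultures was sequenced, 3 with AURKB shRNA and 3 with control shRNA, grouped by sample title; the series design calls them biological replicates. The authors deposited whole-number counts per gene. The authors also deposited FPKM. After a depth factor for each library, the ratio of count to FPKM of a gene was constant across libraries within 3.79e-05 over 12404 genes. The length behind the FPKM was not checked by this, and for some members, such as SNHG1, it exceeds the span of the gene. HISAT2 2.0.4, StringTie 1.3.0, edgeR and GRCh38 are named per the submitters' processing notes. The sources used here do not state what each tool did, the strand setting or the treatment of reads with several matches.

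Counts were filtered (filterByExpr, minimum count 10, minimum total 15), TMM-scaled (factors 0.979 to 1.02) and fitted over all 14818 retained genes by edgeR 4.0.16 (quasi-likelihood test, R 4.3.3, two-sided), with the arm as the single term, Benjamini-Hochberg adjustment over all of them and a threshold of 0.05. The biological coefficient of variation was 0.127. Chi-square per degree of freedom between replicates ran from 6.92 to 7.91, far above that of a library deposited again. Calls describe spread between libraries; bulk RNA cannot separate fewer cells of a type from less RNA per cell. Intervals of shares cover counting error only. The script was tested on simulated counts.

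Alternatives were DESeq2 1.42.0, limma 3.58.1 (voom, or log2(FPKM + 1) and log2(FPKM + 0.1)), RLE and upper-quartile scaling, other filters, the replicate number as a block and leaving out each library. Sequences are from GENCODE 29 (26 of 27 members matched, 21 at the identical position) and RefSeq promoters on GRCh38.p14 (21 matched). The members and lists were chosen with earlier results of these data known. AURKB, MYC and all called members were named, with GAS5, ZFAS1, DANCR, EPB41L4A-AS1 and SNHG1 in any case and, from each list, the 2 called genes with the largest change or else the smallest p. Other genes were named after their values were seen.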

Additional observations from a re-analysis of the deposited data

How the results depend on the processing

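Direction and call of SNHG3 and SNHG17 held in all 16 alternatives. The 4 members called higher became 2 with upper-quartile scaling, DESeq2, no count filter and unfiltered log2(FPKM + 1), and 2 to 3 without 1 library; both filtered FPKM fits gave 3, of which 2 were shared, gaining SNHG25 and losing GAS5 and SNHG14. The 0 called lower became 1 (SNHG6) with upper-quartile scaling, voom and both filtered FPKM fits. Over all genes 1847 higher and 1609 lower became 1325 and 2087 with upper-quartile scaling, which moved the median of all genes to -0.06, and 1264 and 1686 with log2(FPKM + 1). Unfiltered FPKM gave 914 higher, DESeq2 gave 1062 lower, and leaving out 1 library gave 998 to 1056 lower. In the related lists 29 higher became 17 with unfiltered FPKM. The 3 lower became 5 with upper-quartile scaling and both filtered FPKM fits, 1 with DESeq2 or no filter, and 1 to 3 without 1 library. The summed member level had a log2 ratio of 0.07 as reported and 0.014 with CPM by total count. The E-box share moved to 0% within 100 bases before the start, and the pyrimidine start to 53.8% of members with GENCODE starts, an alternative chosen after seeing the data. Leaving out 1 library turned the sign of some uncalled members: SNHG16 ranged from -0.289 to 0.0432, EPB41L4A-AS1 from -0.186 to 0.0439 (0.0092 without shAURKB replicate 3), SNHG20 from -0.694 to 0.962, SNHG15 from -0.0597 to 0.192 and DANCR from -0.081 to 0.43 (log2 fold change). The cause was not tested, except that fits without a library have fewer samples.

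The replicate numbers did not pair the samples: same-numbered libraries had correlations of 0.04, -0.02 and 0.02 over 10370 genes. With the number as a replicate block 1286 genes were higher and 1027 lower, 2 members higher, and 22 list genes higher and 1 lower. Depth limits members under 2 CPM and snoRNA rows, and 3 libraries an arm limit all tests.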
